A study of Mus musculus with 4 samples.

Results

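The genes described here are mouse amino acid carriers of the Slc1, Slc3, Slc6, Slc7, Slc36, Slc38 and Slc43 families. They were chosen by gene symbol, with earlier results of these data known, from a deposited table of RNA bisulfite sites. The table carries at least 1 listed position for 22 of the 61 RefSeq protein-coding genes of these 7 families. Together these genes hold 1679 of the 506952 listed positions (0.331%), and the table as a whole names 7821 gene labels. The study sequenced bisulfite-treated poly(A) RNA of cultured NRAS/AE9a acute myeloid leukemia cells as 4 libraries, 2 labelled Tet2 KO and 2 labelled WT. Tet2 is a dioxygenase that oxidises 5-methylcytosine, NRAS is a RAS family GTPase and AE9a is a truncated AML1-ETO fusion protein. All cells grew with SCF, IL-3 and IL-6 under G418 and puromycin selection. The labels do not say whether the replicates were separate cultures or clones, how Tet2 was inactivated, or from which animals the cells came.

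Cells import amino acids through membrane carriers that exchange one amino acid for another or couple uptake to sodium, chloride or proton gradients. The light-chain members of the Slc7 family, unlike its cationic carriers, work as exchangers paired with a heavy chain of the Slc3 family. Several Slc36 and Slc38 proteins sit on lysosomes, where they help report amino acid supply to the mTORC1 kinase. Bisulfite turns unmethylated cytosine into uracil and leaves 5-methylcytosine as it is. The level of a listed position is the share of the reads used there that still read cytosine, written as a fraction. According to its name, the table lists significant positions found in Tet2 KO cells alone. Neither WT values nor single libraries have a column in it (0 of each), and no transporter could therefore be compared between Tet2 KO and WT cells. Coverage is the number of reads over a position, and the reads used are those the authors entered into its level. Why the other covering reads were left aside is not stated by the sources at hand.

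Slc7a5 encodes LAT1, the light chain that carries large neutral amino acids. It is shown first because its 2 listed positions were the only transporter positions inside a sequence window of the RefSeq promoter table (GRCm38.p6), here a window of the neighbouring gene BC048644. The stretch below runs over chr8:121907583-121907612 on the minus strand, in the sense of Slc7a5, with both listed cytosines in capitals.
Slc7a5: gagagcatggcggtcgcgggcgCCaagagg
The adjacent cytosines lay at bases 23 and 24 of these 30 bases, 96 and 97 nt inside the 5′ end of the Slc7a5 span, and an ATG stood at bases 7 to 9. At 121907589 (base 24) both Tet2 KO replicates made a call, with levels of 0.208 and 0.278 at a mean of 73 covering reads. At 121907590 (base 23) only 1 replicate made a call, with 5 unconverted reads of 22 used and 66 covering (level 0.227, Wilson 95% interval 0.101 to 0.434). Both positions stood near the lowest level in the table, 0.2.

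The sequence windows also showed what kind of base the listed positions fall on, a check made after the data were examined. Over the whole table, 144 minus-strand positions lay in a window, and 130 of them (90.3%) fell on a cytosine of that strand. Of 5942 plus-strand positions in a window, 3084 fell on a cytosine (51.9%, exact interval 50.6 to 53.2), 1783 on a guanine, 1075 on an adenine and 0 on a thymine. The cytosine share was 68.6% among the 847 of these called in both replicates and 62.3% among the 2209 with 20 or more covering reads, but 45.8% among the 1483 with no other listed position within 10 nt. Among the 642 plus-strand positions of level 1 in a window, the cytosine share was 63.6%. The cause was not tested. The base under the 1668 plus-strand transporter positions was not analysed here, so these are called listed positions below and are not taken to be cytosines. Reads called unconverted are those the authors counted as cytosine, and the methylation level is their fraction of the reads used. Neither term asserts a methylated cytosine at a plus-strand position.

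Counts differed between the strands. Of the 22 transporter genes, 15 lie on the plus strand with a median of 83 listed positions, and 7 lie on the minus strand with a median of 1. Plus-strand positions made up 1668 of 1679 (99.3%), against 99.1% of the whole table. Among plus-strand genes counts still ran from 6 in Slc6a13 to 283 in Slc6a6, and 15 further plus-strand genes of these families had none. Counts of minus-strand genes such as Slc3a2 and Slc7a5 are not set against those of plus-strand genes below. In these bulk libraries, fewer reads over a gene can also come from fewer cells or less RNA per cell, which cannot be told apart. Lists of marker genes were drawn up with earlier results of these data known. Of marker genes for the labelled cell type, 10 of 12 myeloid genes had listed positions, where 34.2% of 21900 RefSeq protein-coding genes had at least 1. In the T cell, B cell and erythroid lists 0 of 3 genes each had one, too few genes to read against that share, and Cd3e, Cd3g and Hbb-bt among them are minus-strand genes. All 4 islet hormone genes, Ins1, Ins2, Gcg and Iapp, had positions, 557 together. Of these, 367 lay on the minus strand, 139 in Ins2 and 228 in Gcg, so low counts did not hold for every minus-strand gene. The part of the islet genes in the transporter results was not tested.

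**Figure D1:**
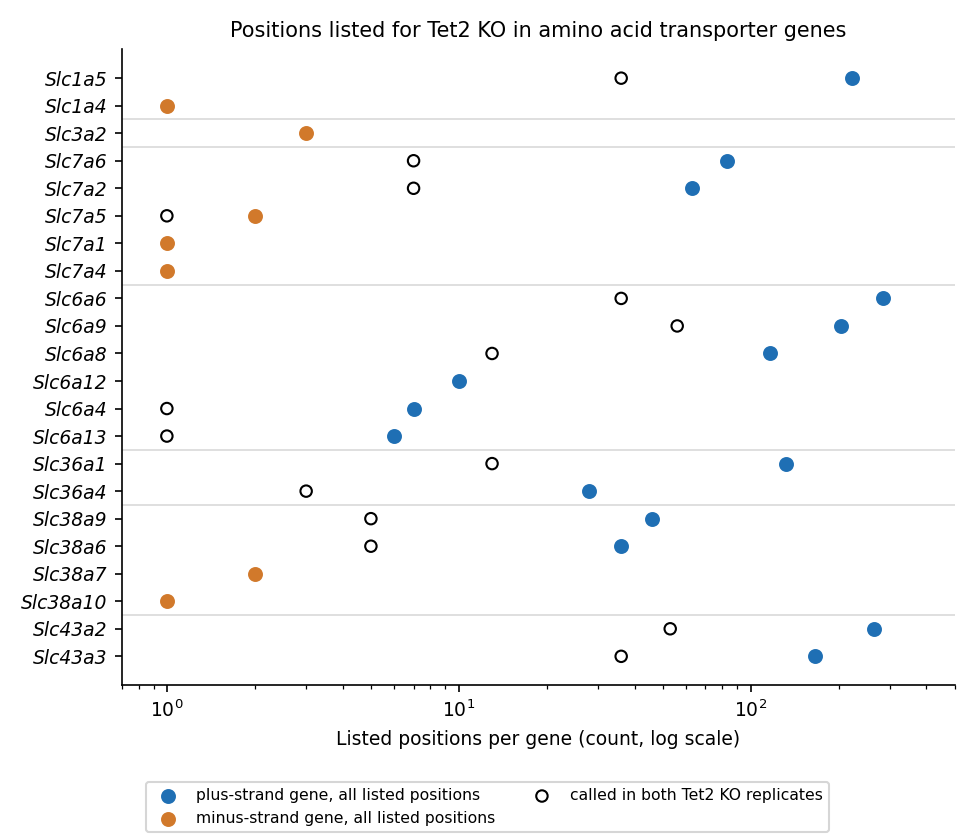
Number of listed positions in each of the 22 transporter genes (horizontal log axis, count), grouped by family, for plus-strand genes (blue) and minus-strand genes (orange). Open circles give positions called in both Tet2 KO replicates; the 7 minus-strand genes have between 1 and 3 positions, and Slc6a6 has 283.

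The share of transporter genes with a listed position was close to that of all genes. It was 36.1% (22 of 61), against 34.2% of all RefSeq protein-coding genes. With 5 or more positions required, the transporter share was 24.6% (15 genes) against 24.9% of all genes. At 100 or more positions it was 11.5% (7 genes) against 8.26%. These 7 genes, Slc6a6, Slc43a2, Slc1a5, Slc6a9, Slc43a3, Slc36a1 and Slc6a8, held 1389 transporter positions (82.7%).

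The level of the transporter positions had a median of 0.545 with quartiles of 0.385 and 0.746, while all listed positions had a median of 0.526 with quartiles of 0.364 and 0.7. Coverage had a median of 18 reads in both sets, and ran from 10 to 124 reads in the transporters. Among the 12 genes with 20 or more positions, gene medians ran between 0.462 in Slc7a6 and 0.678 in Slc6a8, and the quartile ranges of all 12 overlapped. Minus-strand transporter positions had a median level of 0.227, close to the 0.231 of all minus-strand positions. A level of 1 was listed at 103 transporter positions (6.13%), against 3.95% of the whole table. These positions had a median of 15 covering reads, and a level of 1 on 10 reads has a Wilson interval that reaches down to 0.722. Levels and counts are properties of positions that passed the authors' filter; positions are not replicates, so these differences were not tested.

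**Figure D2:**
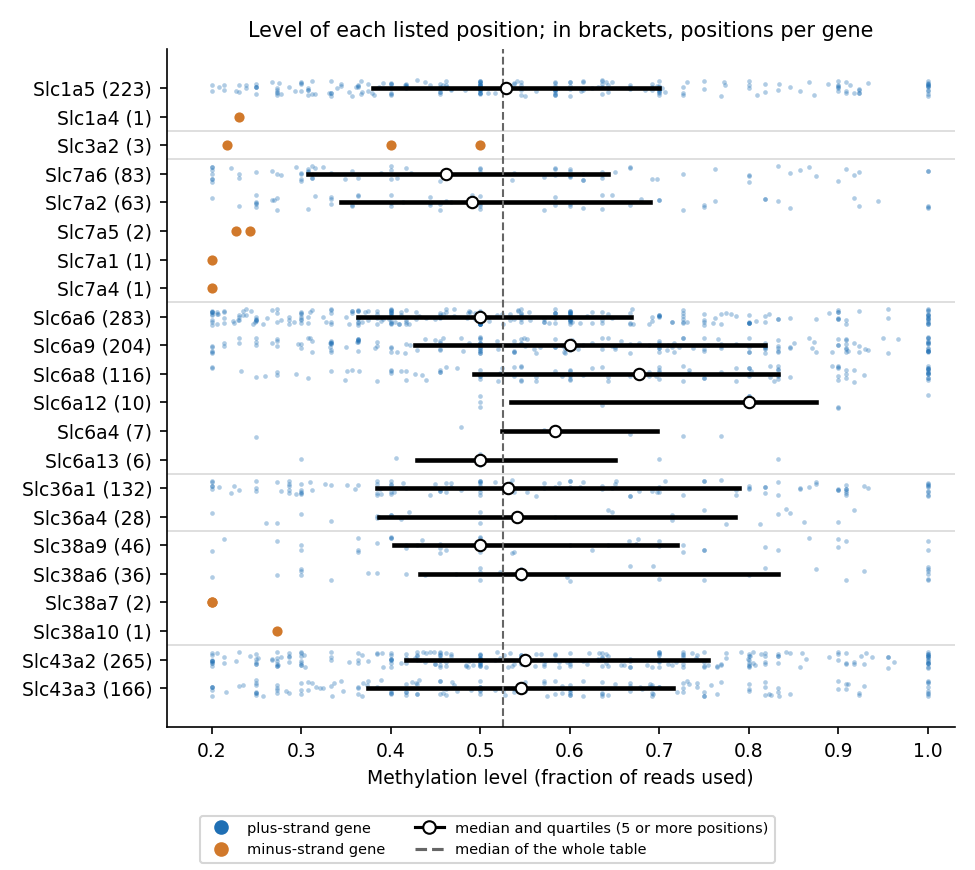
Methylation level (horizontal axis, fraction of reads used) of every listed position in each transporter gene, with the number of positions in brackets; white circles and black bars give the median and quartiles of genes with 5 or more positions, and the dashed line the median of the whole table (0.526). Medians of the genes with 5 or more positions run between 0.462 in Slc7a6 and 0.8 in Slc6a12, and the orange minus-strand positions reach no further than 0.5.

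Slc1a5 encodes ASCT2, a sodium-dependent exchanger of neutral amino acids known as a main route of glutamine entry in proliferating cells. It had 223 listed positions on the plus strand of chromosome 7, in a span from 16781334 to 16798274 (mm10), or 13.2 per kb of span, the highest density among the transporter genes. Their levels had a median of 0.529 with quartiles of 0.380 and 0.7, at a median of 15 covering reads, and 36 of them were called in both Tet2 KO replicates. Unlike most long-listed transporters, Slc1a5 held few positions at its 3′ end: 181 of 223 (81.2%) lay between 30% and 80% of the span and 17 in its last 10%. Those 17 had a median level of 0.333 at 30 covering reads, whereas the 190 outside the first and last 10% of the span had 0.545 at 14 covering reads.

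Among transporter positions of level 1, the most covered was in Slc1a5, at 16793831, 12497 nt from the 5′ end of the span. It had 76 covering reads, of which the authors used 10, and all 10 were unconverted (Wilson interval 0.722 to 1). The 10 unconverted reads were thus 13.2% of the covering reads. It was called in 1 replicate. At 16793825, 6 nt upstream, both replicates made a call at a mean of 94 covering reads, with nearly equal levels of 0.909 and 0.917. The mean of 10 unconverted reads there was 10.6% of the covering reads. At 16793851, 20 nt downstream, both replicates stood at 1, at a mean of 13 covering reads. The positions between, 17 and 19 nt downstream, had 5 and 8 unconverted of 10 reads used each, so the neighbourhood held levels between 0.5 and 1.

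Slc1a5 had 12 positions of level 1 in all, 10 of them with under 20 covering reads and none of the 1-replicate calls resting on more than 14 reads used. The 11 positions with 50 or more covering reads held both low and high levels, but the high ones rested on few reads used. Among those with 1 call, low levels had up to 66 reads used, whereas 16781536, at 0.727, had 11 of 52 covering. The 14 Slc1a5 positions with 1 call and 20 or more reads used had a median level of 0.3185. At 16786380, the most covered position of the gene, 17 of 58 reads used were unconverted, with 114 covering (0.293, interval 0.192 to 0.420). At 16781707, 373 nt from the 5′ end, 25 of 66 reads were unconverted (0.379, interval 0.271 to 0.499). The intervals of both lie below that of the level 1 position at 16793831. The second most covered, 16793825 above, had levels over 0.9 in both replicates, but with a mean of 10 unconverted reads at 94 covering. At 16795985, with a mean of 60 covering and 8 unconverted reads, the replicates had 0.667 and 0.727. The intervals printed here take in counting error alone, and the position of level 1 was picked for being the highest.

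**Figure D3:**
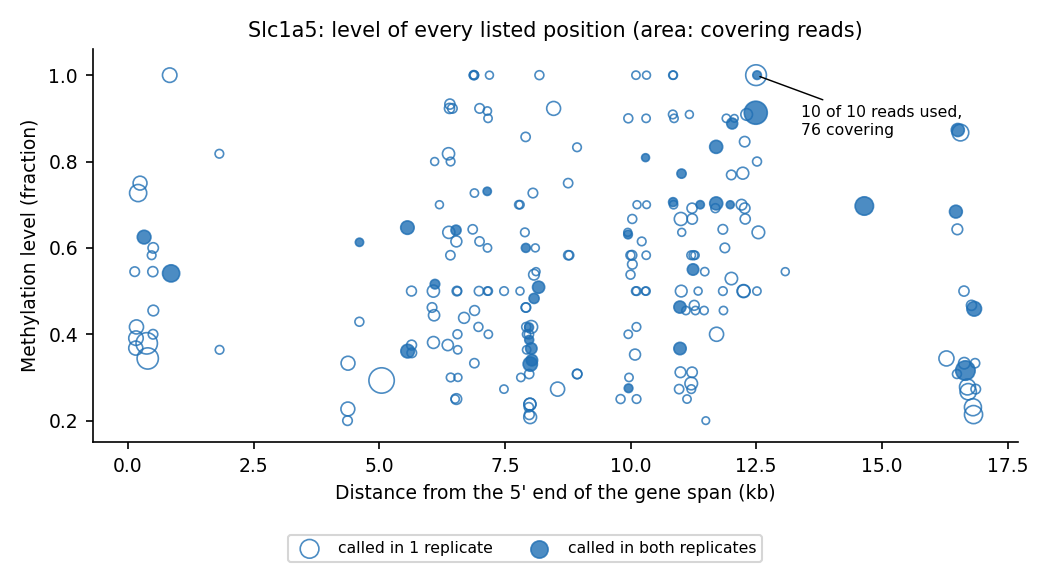
Level of each of the 223 listed positions of Slc1a5 (vertical axis, fraction) against distance from the 5′ end of the gene span (horizontal axis, kb); circle area is proportional to covering reads, and filled circles were called in both Tet2 KO replicates. The marked position has 10 of 10 reads used and 76 covering, and large circles lie both at low levels (0.293 at 114 covering reads) and at high ones (0.913 at 94). Circle area does not show reads used, which were 58 at the 0.293 position. The 0.913 position had a mean of 10 unconverted reads.

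Slc1a4 encodes ASCT1, the exchanger of alanine, serine and cysteine most closely related to ASCT2. Its only listed position was at 20304183 on the minus strand of chromosome 11, with 3 of 13 reads used unconverted and 19 covering (0.231, interval 0.0818 to 0.503). The glutamate transporter genes of the family, Slc1a1, Slc1a2, Slc1a3, Slc1a6 and Slc1a7, had no listed position, and 4 of these 5 lie on the plus strand.

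Slc3a2 encodes CD98, the heavy chain that brings LAT1 and its relatives to the cell surface. It had 3 listed positions on the minus strand of chromosome 19. At 8712857, 5 of 23 reads used were unconverted (0.217, interval 0.0966 to 0.419) with 48 covering. The other 2, at 8710639 and 8710643, had 6 of 12 and 4 of 10 reads unconverted, giving levels of 0.5 and 0.4 with intervals of 0.254 to 0.746 and 0.168 to 0.687. All 3 were called in 1 replicate, and their intervals overlap. Slc3a1, the heavy chain of the renal cystine transporter, had no listed position.

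The Slc7 light chains and cationic carriers had positions in 5 of 15 genes, 150 in all, with a median level of 0.462. Slc7a6, which encodes the y+LAT2 exchanger of cationic and neutral amino acids, had 83 positions on chromosome 8 with a median level of 0.462 (quartiles 0.308 and 0.643). Of these, 7 were called in both replicates. Its highest position with 20 or more covering reads, at 106196657, had 9 of 10 reads used unconverted (interval 0.596 to 0.982). At 106179220, the most covered position with calls in both replicates, the levels were 0.217 and 0.481, which differ more than the median of 0.0900 over all transporter positions called in both. Slc7a6 positions lay mostly toward the 3′ end, with 41 of 83 in the last 10% of the span.

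Slc7a2 encodes CAT2, a carrier of arginine and lysine. It had 63 positions on chromosome 8 with a median level of 0.491 at 14 covering reads, and 44 of them lay in the last 10% of a span of 59730 nt. At 40916659, all 11 reads used were unconverted, with 29 covering (interval 0.741 to 1). At 40902663, the position with most reads, 16 of 36 used were unconverted (0.444, interval 0.295 to 0.604). In both replicates, 40921633 was called with levels of 0.4 and 0.428, while 40918564 had 0.2 and 0.6, so replicates of single positions could be close or far apart.

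The remaining Slc7 genes with positions, Slc7a5, Slc7a1 and Slc7a4, are on the minus strand. Slc7a1, which encodes the cationic carrier CAT1, had 3 of 15 reads used unconverted at 148329825 on chromosome 5 (0.2, interval 0.0705 to 0.452). Slc7a4, whose product resembles the cationic carriers, had 2 of 10 at 17574067 on chromosome 16 (0.2, interval 0.0567 to 0.510). These levels equal the lowest in the table. Slc7a11, the cystine-glutamate exchanger gene, and the y+LAT1 and LAT2 genes Slc7a7 and Slc7a8 had no listed position, and all of them lie on the minus strand by the promoter table.

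The Slc6 family, carriers that use sodium and chloride, had the most positions. Of its 19 genes, 6 had a listed position, 626 in all, with a median level of 0.565 and 107 calls in both replicates. Slc6a6, the taurine transporter gene, led all transporters with 283 positions on chromosome 6 between 91684153 and 91759008. Levels had a median of 0.5 and quartiles of 0.364 and 0.669. Coverage reached 50 or more reads at 32 of them, out of 70 such positions in all transporter genes. The last 20% of the span held 230 positions, with a median level of 0.6 between 80% and 90% of the span and 0.428 beyond.

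The most covered position of all transporters was in Slc6a6, at 91749761, with a mean of 124 covering reads. Both replicates had a level of 0.554 there. At 91755579 the authors used 81 of 100 covering reads, of which 40 were unconverted (0.494, interval 0.388 to 0.6). Nearby, at 91755504, 14 of 68 reads used were unconverted (0.206, interval 0.127 to 0.316). The intervals of these neighbours, read at similar depth, do not overlap, but the pair was picked after its values were seen. Whether both calls came from the same replicate is not given. The highest position with 20 or more covering reads, at 91726064, was unconverted in 13 of 13 reads used with 37 covering (interval 0.772 to 1). Only 6 nt away, at 91726058, the replicates had levels of 0.301 and 0.923, the widest gap between replicates at any transporter position.

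Slc6a9 encodes GlyT1, a glycine transporter that also supplies glycine to erythroid cells. It had 204 positions on chromosome 4 with a median level of 0.6 (quartiles 0.427 and 0.818). Of these, 56 (27.5%, exact interval 21.5 to 34.1) were called in both replicates, the highest share among genes with 20 or more positions. The interval treats positions as independent, although close positions can share reads, and this gene is singled out for its high share. Over all transporters the share was 16.3% (273 of 1679), against 14.2% of the whole table, and without Slc6a9 it was 14.7%. Slc6a9 positions also stood close together, with another within 10 nt for 87.3%, against 69.0% of transporter positions and 70.3% of all positions. At 117857273, 11 of 11 reads used were unconverted with 29 covering (interval 0.741 to 1). At 117864609 the replicates stood at 0.9 and 1, at a mean of 49 covering reads. The densest 100 nt of the gene, from 117864638, held 19 positions with a median level of 0.846 and 1 call in both replicates.

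Slc6a8, the creatine transporter gene on the X chromosome, had 116 positions in a span of 9370 nt, or 12.4 per kb. Its median level of 0.678 (quartiles 0.494 and 0.833) was the highest among genes with 20 or more positions. Near its 5′ end, 51 positions in the first 10% of the span had a median of 0.8, while the 65 outside it had 0.545. Of its 14 positions of level 1, 9 lay within 1000 nt of the 5′ end. One of these, at 73673768, was at 1 in both replicates. At 73681056, with the most reads used, 24 of 29 reads were unconverted (0.828, interval 0.655 to 0.924). The 13 positions called in both replicates had a lower median of 0.427, against 0.7 for the 103 called in 1. Coverage had a median of 22 reads where both replicates made a call and of 18 where 1 did.

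Small numbers of positions were listed in the other Slc6 genes. Slc6a12, which encodes a betaine and GABA transporter, had 10 positions on chromosome 6 with levels from 0.5 to 1 and a median of 0.8, at no more than 15 covering reads and with 0 calls in both replicates. Slc6a13, which encodes a GABA transporter, had 6 positions, all within 747 nt of its 3′ end, with levels between 0.3 and 0.833. At 121336974 its replicates had 0.357 and 0.455. The serotonin transporter gene Slc6a4, whose substrate is not an amino acid, had 7 positions with levels between 0.25 and 0.769, and 6 of them lay between 77010363 and 77010513 on chromosome 11. With 10 to 15 reads used at each 1-replicate call, the intervals of the lowest and the highest Slc6a4 position overlap, at 0.0889 to 0.532 and 0.497 to 0.918.

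The proton-coupled Slc36 carriers had positions in Slc36a1 and Slc36a4, of 4 genes. Slc36a1 encodes PAT1, which moves small neutral amino acids out of lysosomes and across the cell surface. It had 132 positions on chromosome 11 with a median level of 0.531 (quartiles 0.385 and 0.790), and 86 (65.2%) lay in the last 10% of the span. At 55232376, 11 of 11 reads used were unconverted with 45 covering (interval 0.741 to 1). At 55234998, with 67 covering reads, 13 of 37 used were unconverted (0.351, interval 0.218 to 0.512). This lies below the interval of the first, which was picked for being the highest. Replicates had 0.258 and 0.396 at 55235895. Slc36a4, the gene of the related carrier PAT4, had 28 positions on chromosome 9 with a median of 0.542 and 0 in the last 10% of the span. Its highest with 20 or more covering reads, at 15720716, had 16 of 19 reads unconverted (0.842, interval 0.624 to 0.945). Adjacent Slc36a4 positions at 15724591 and 15724592 had 15 of 21 and 6 of 23 reads unconverted (0.714, interval 0.5 to 0.862, and 0.261, interval 0.125 to 0.465). Their intervals do not overlap, but the pair was picked after its values were seen. Whether both calls came from the same replicate is not given.

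The Slc38 family, sodium-coupled carriers of glutamine and other neutral amino acids, had positions in 4 of 11 genes. Slc38a9, which encodes a lysosomal arginine sensor that signals to mTORC1, had 46 positions over a span of 82564 nt on chromosome 13. Their median level was 0.5 at 13 covering reads, with 5 calls in both replicates. The highest with 20 or more covering reads, at 112669638, had replicate levels of 0.647 and 0.705. At 112695278 they were 0.615 and 0.733, and at 112701566, 10 of 22 reads used were unconverted (0.455, interval 0.269 to 0.653). Slc38a6 had 36 positions on chromosome 12 with a median of 0.545, of which 19 lay in the first 10% of the span and 0 in the last. It had 6 positions of level 1, none with more than 14 covering reads. At 73288455, 9 of 11 reads used were unconverted (0.818, interval 0.523 to 0.949).

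On the minus strand, Slc38a7, the gene of a lysosomal glutamine exporter, had 2 positions on chromosome 8, at 95842187 and 95844950, each with 2 of 10 reads used unconverted (0.2, interval 0.0567 to 0.510). Slc38a10 had 1 position at 120105388 on chromosome 11, where the authors used 11 of 79 covering reads and 3 were unconverted (0.273, interval 0.0975 to 0.566). Slc38a1 and Slc38a2, which encode the surface glutamine carriers SNAT1 and SNAT2, had no listed position. Slc38a2 lies on the minus strand by the promoter table, and the strand of Slc38a1 was not known here. Because the table starts at a level of 0.2 and at 10 reads, a missing gene has no upper limit from it.

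The Slc43 family had positions in 2 of 3 genes, 431 in all. Slc43a2 encodes LAT4, a uniporter of large neutral amino acids. It had 265 positions on chromosome 11 with a median level of 0.550 (quartiles 0.417 and 0.754), 53 of them called in both replicates, and 188 (70.9%) in the last 10% of the span. At 75570573, all 14 reads used were unconverted with 58 covering (interval 0.785 to 1). It and the Slc1a5 position were the only transporter positions of level 1 with 50 or more covering reads. At 75563054, 46 of 70 reads used were unconverted (0.657, interval 0.540 to 0.758), and at 75573677, with 91 covering reads, 7 of 34 (0.206, interval 0.103 to 0.368). The most covered Slc43 position called in both replicates was 75545778, with levels of 0.381 and 0.473 at a mean of 53 reads. Of the 9 transporter positions at 1 in both replicates, 5 were in Slc43a2, the most covered of them at 75544688 with a mean of 28 reads.

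Slc43a3 encodes a carrier of purine nucleobases that belongs to this family by sequence. It had 166 positions on chromosome 2 with a median level of 0.545, and 36 (21.7%) were called in both replicates. The most reads used at any transporter position with a single call were at 84948429, where 37 of 99 were unconverted with 120 covering (0.374, interval 0.285 to 0.472). At 84936785, 240 nt from the 5′ end, both replicates had a level of 1 at a mean of 31 covering reads. Slc43a3 positions gathered at both ends, 41 in the first 10% of the span and 59 in the last. Slc43a1, which encodes the related carrier LAT3, had no listed position although it lies on the plus strand.

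**Figure D4:**
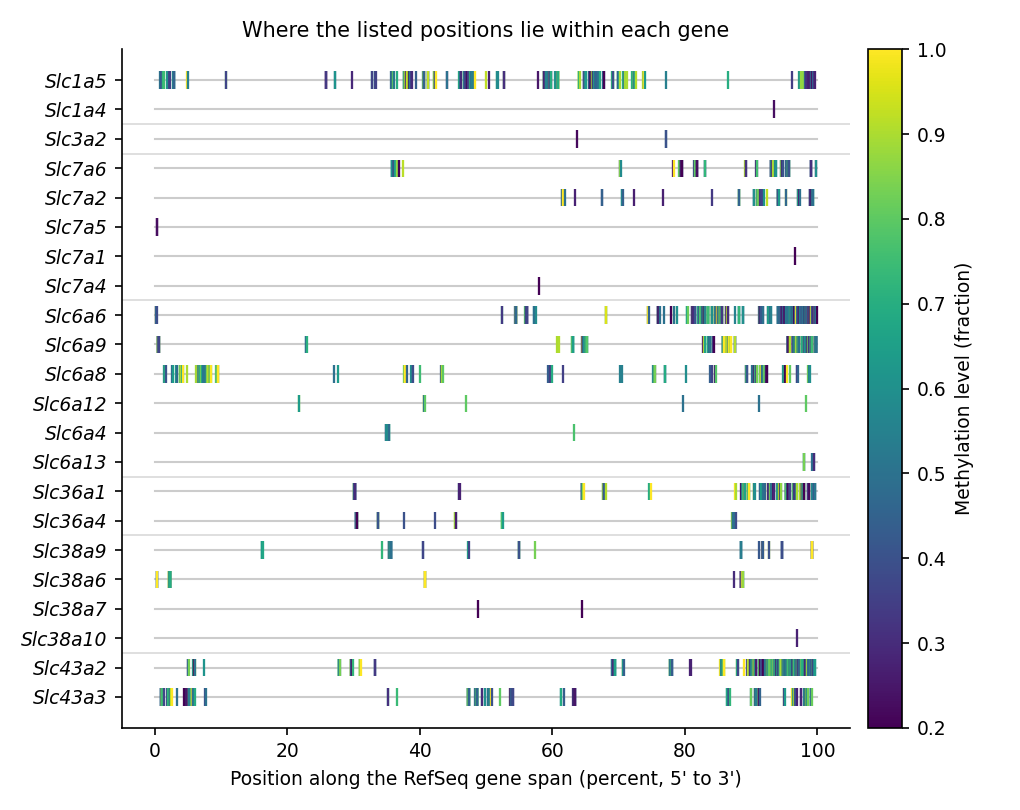
Place of each listed position along its RefSeq gene span (horizontal axis, percent from 5′ to 3′), coloured by methylation level (fraction). Marks gather in the last 10% of Slc43a2, Slc36a1 and Slc7a2, in the first 10% of Slc6a8, and in the middle of Slc1a5.

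Over all transporter genes, 720 positions (42.9%) lay in the last 10% of the gene span and 153 (9.11%) in the first. In the whole table these shares were 28.9% and 8.37% of 466732 pairs of a position and a gene. Slc43a2 and Slc6a6 weigh heavily here, and without them 35.2% of 1131 positions lay in the last 10% of the span. Exons were not annotated here, and how reads spread along each gene is not taken into account.

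Replicate agreement could be read only at the 273 positions called in both Tet2 KO libraries. Their levels differed by a median of 0.0900, against 0.100 for the whole table, 17 had equal levels and 20 differed by more than 0.3. Positions called in both had a median level of 0.591 and a median of 22 covering reads, and those called in 1 had 0.540 and 17. Which replicate was the higher is not given. Positions that failed the filter in 1 library do not enter, and the spread over all positions was not measured.

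**Figure D5:**
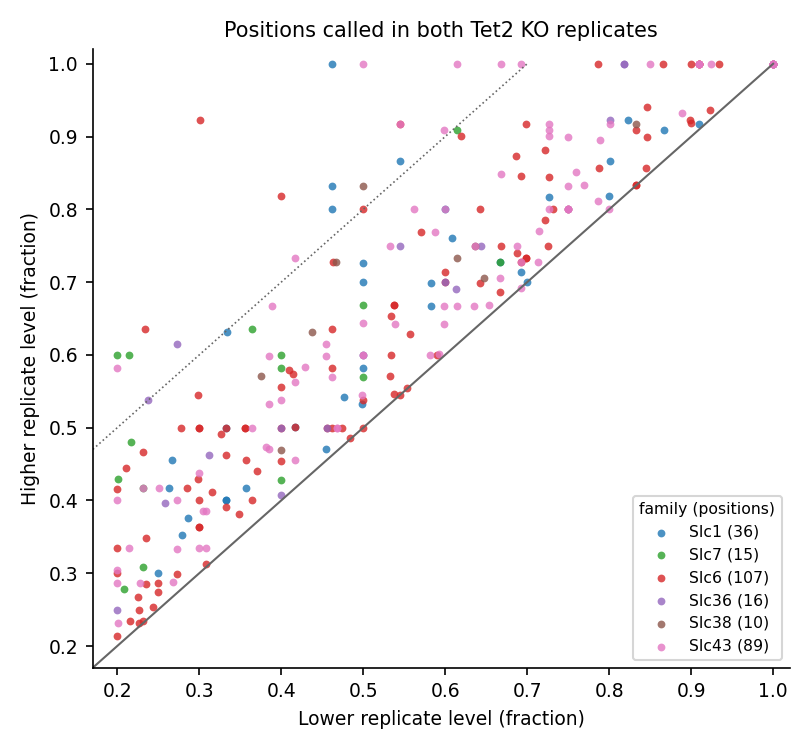
Higher against lower replicate level (fractions) at the 273 transporter positions called in both Tet2 KO replicates, coloured by family with the number of positions in brackets. The solid line marks equal levels and the dotted line a difference of 0.3, which 20 positions exceed.

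Genes of amino acid metabolism and sensing, a list of 32, had positions in 24 members (75%, against 34.2% of all protein-coding genes). The list was drawn up alongside the transporters with earlier results of these data known, so its share is not read as an enrichment. Phgdh, Psph, Shmt1, Mthfd2, Got1, Got2, Cth and Castor1 had no listed position. Of these, Castor1 is a plus-strand gene, the strand of Cth was not known here, and the others are minus-strand genes. Of the 24 genes with positions, 16 were plus-strand and 8 minus-strand genes. They held 1838 positions with a median level of 0.538 at 18 covering reads, and 15.2% were called in both replicates. On the plus strand, Mtor, the kinase at the centre of the pathway, had 324 positions with a median of 0.561, and Rptor, which encodes its partner Raptor, had 258 with 0.571. Eif2ak4, the gene of the amino acid starvation kinase GCN2, had 206 with 0.476, and the stress response gene Ddit3 had 155 with 0.545. Glul, which encodes glutamine synthetase, had 75 with 0.538. Among the minus-strand members, the asparagine synthetase gene Asns had 1 at 0.2. Of the 1838 positions of this list, the plus strand held 1823 and the minus strand 15.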

How the data were processed

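RNA bisulfite sequencing was done on 4 libraries of poly(A) RNA, 2 Tet2 KO and 2 WT, grouped by the genotype label. Per the submitters' processing notes the build is mm10; aligner and site caller are not stated by the sources at hand. Library totals were not used here.

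Per the file headers, the deposited table gives a methylation level as a fraction, averaged over the replicates with a call, and read numbers that are a score, the rounded mean of those replicates. The deposited normalized coverage was not used. In the authors' deposited table the combined p-values of transporter positions reach 0.000114 (state) and 0.0773 (rate). No column (0) belonged to another series.

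Members and lists were chosen with earlier results of these data known. At positions with 1 call, reads used were the unconverted reads over the level, whole in 100% of cases (tolerance 0.0006). The deposited SD was read as a population SD, since among 16570 positions with calls in both replicates and at most 15 covering reads, 81.7% then gave whole reads in both, against 12.8% otherwise (tolerance 0.0012); level plus and minus it gave the replicate levels. Intervals are Wilson (levels) or Clopper-Pearson (shares) at 95% from statsmodels 0.14.6. They cover counting error only and treat reads as independent molecules and, for shares, positions as independent. Spans come from RefSeq (GRCm38.p6), where 22 of 22 symbols matched. Strand came from the positions or, for genes without one, the promoter table, known for 50 of 61 genes. Every transporter gene with a position is named. Full values go to the Slc1a5 position of level 1 and, per family, to the highest (at 20 or more covering reads), the most covered and the most covered doubly called position; the other positions described were chosen after their values were seen. Computations were tested on simulated data. Alternatives were 20 or 50 covering reads, 20 reads used, positions outside runs (another within 10 nt), 1 gene label, the gene's strand, both replicates, and combined p-values at or under 0.001.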

Additional observations from a re-analysis of the deposited data

How the results depend on the processing

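The 1679 transporter positions became 715 at 20 or more covering reads, 70 at 50 or more, 173 with 20 or more reads used (positions with 1 call), 520 outside runs, 273 when called in both replicates and 821 with both combined p-values at or under 0.001. The 22 genes became 17 at 20 or more covering reads, 8 at 50 or more and 14 with 20 or more reads used. They became 21 outside runs and 15 when called in both replicates, and stayed 22 under the p-value limit. The median level of 0.545 became 0.424 at 50 or more covering reads, 0.455 with 20 or more reads used and 0.388 under the p-value limit. It became 0.5 at 20 or more covering reads, 0.5095 outside runs and 0.591 when called in both replicates. The replicate SD (median 0.0636) is that of single positions and does not measure the error of this median. The share called in both replicates, 16.3%, became 22.0% at 20 or more covering reads, 18.6% at 50 or more and 13.5% outside runs. The causes were not tested. Limiting positions to 1 gene label or to the strand of the gene changed none of these values. For the 22 genes the strand was taken from the positions themselves, so the strand setting checks little. The promoter table held 15 of them, all 15 with the same strand. Levels with 10 reads used have wide intervals, and depth limits every comparison of single positions. No paired analysis was possible because the table holds no WT and no single-library values; for the same reason no library could be left out.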
